A study of Mus musculus with 8 samples.

Results

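The 40 genes described here copy and divide the chromosomes: they load and switch on the replicative helicase, build DNA, supply its precursors, drive the cell cycle or run mitosis. They were taken by gene symbol from a fixed list that was drawn up with earlier results of these data known. They are 40 of the 24506 genes in the count table, of which 13775, including all 40, had enough counts to be tested. RNA was sequenced from 8 libraries of mouse T-cell progenitors grown from bone marrow, 2 libraries in each of 4 groups. All mice carried a Cas9 transgene, a Bcl2 transgene and a Bcl11b-mCherry reporter on both alleles on a B6 background, so every group, controls included, made extra BCL2, a protein that blocks cell death. Retroviruses brought in either control guide RNAs (sgControl) or 3 guides against Stat5a plus 3 against Stat5b (sgStat5), genes for transcription factors that act downstream of IL-7. For 6 days the infected cells grew with the cytokines Flt3l and IL-7 (10 ng/ml of either) on a Notch-ligand-presenting stromal line, OP9-DLL1. Lineage-negative infected cells were then sorted as CD25+ mCherry-, before commitment to the T lineage (the early gate), or as CD25+ mCherry+, after it (the late gate). Neither the target of the control guides nor the promoters of the transgenes are given in the sources used here, and nothing says whether the 2 replicates were separate animals or cultures, so the p-values cover the spread of these libraries alone, which may be technical.

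Before a cell copies its DNA, the CDC6 and CDT1 loaders place rings of MCM2 to MCM7 on replication origins, and CDC45 and the GINS complex turn the rings into active helicases as S phase starts. E2F factors switch on many of these genes together with cyclin E late in G1, whereas genes for mitosis are switched on later, in S and G2, through NF-Y at CCAAT boxes and the MuvB complexes at an element named CHR. Thymic progenitors divide several times before and during commitment, and IL-7 signals through STAT5 are known to support their survival and growth.

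Promoter sequence is shown first because the replication and the mitosis side of the programme are known for different elements. RefSeq windows on GRCm38.p6 were found for 33 of the 40 genes, as 34 windows because Mcm7 has more than 1. The 250 bases before the gene start of each window were searched on both strands. That start need not be the start of the transcript counted here. The windows of Cdc6 and E2f1 and 1 of those of Mcm7 lie inside the span of the counted transcript, so they are not upstream of it. The E2F letters searched were TTTCCCGC, TTTGGCGC, TTTCGCGC and TTTGCCGC, the CHR letters were TTTGAA and TTCGAA, and the CCAAT box was CCAAT; E2F matches may overlap each other. An E2F match stood in 1.86% of 32851 promoters in the table, a CHR match in 17.1% and a CCAAT box in 33.8%. Of the 10 windows of licensing and helicase genes, 4 (40%) held an E2F match, that of Cdc6 among them, and 3 (30.0%) a CHR match. Of the 10 windows of mitosis genes, 0 held an E2F match, 5 (50.0%) a CHR match and 9 (90.0%) a CCAAT box. The CCAAT box was also in 8 of the 10 licensing and helicase windows (80.0%) and in 4 of 5 synthesis windows (80.0%). In the lists of other genes described below, E2F matches stood in 4 of 17 licensing windows (23.5%), 2 of 29 synthesis windows (6.9%) and 1 of 36 mitosis windows (2.78%). CHR matches stood in 2 (11.8%), 3 (10.3%) and 14 (38.9%) of them. The 4 nucleotide-supply windows held 0 E2F matches. The windows below are those of the 4 mitosis genes called between the gates in both guide arms (below) and of the 2 MCM genes with the most E2F matches. They run 5′ to 3′ on the gene's strand, with E2F or CHR matches on either strand in capitals. A match is a run of letters, not a shown binding site.
Top2a, chr11:99024190-99024439, minus strand: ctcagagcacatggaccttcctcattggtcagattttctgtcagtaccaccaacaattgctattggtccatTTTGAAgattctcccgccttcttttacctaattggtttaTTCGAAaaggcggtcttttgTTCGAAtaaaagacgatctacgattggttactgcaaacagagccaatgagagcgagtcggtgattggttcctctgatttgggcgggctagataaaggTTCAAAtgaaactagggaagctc
Mki67, chr7:135716380-135716629, minus strand: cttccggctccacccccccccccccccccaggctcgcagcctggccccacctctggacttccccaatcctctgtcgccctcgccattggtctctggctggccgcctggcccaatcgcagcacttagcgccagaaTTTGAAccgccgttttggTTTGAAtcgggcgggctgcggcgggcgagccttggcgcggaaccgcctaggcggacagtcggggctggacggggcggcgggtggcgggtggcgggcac
Kif11, chr19:37376132-37376381, plus strand: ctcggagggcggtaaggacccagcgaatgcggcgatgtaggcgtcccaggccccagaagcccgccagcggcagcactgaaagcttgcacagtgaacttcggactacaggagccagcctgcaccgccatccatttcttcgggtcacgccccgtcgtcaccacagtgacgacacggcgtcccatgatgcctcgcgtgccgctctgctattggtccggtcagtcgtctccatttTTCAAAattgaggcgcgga
Bub1b, chr2:118597961-118598210, plus strand: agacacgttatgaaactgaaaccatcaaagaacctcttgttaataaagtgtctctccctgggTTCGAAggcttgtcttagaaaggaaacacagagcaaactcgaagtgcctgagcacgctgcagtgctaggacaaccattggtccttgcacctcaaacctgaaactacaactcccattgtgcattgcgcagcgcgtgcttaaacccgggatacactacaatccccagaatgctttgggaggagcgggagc
Mcm6, chr1:128359706-128359955, minus strand: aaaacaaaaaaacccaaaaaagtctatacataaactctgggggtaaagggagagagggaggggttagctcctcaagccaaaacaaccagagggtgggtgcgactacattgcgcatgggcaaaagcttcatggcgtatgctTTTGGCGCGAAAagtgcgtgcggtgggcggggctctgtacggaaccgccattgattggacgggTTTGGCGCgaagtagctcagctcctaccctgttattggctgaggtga
Mcm5, chr8:75109259-75109508, plus strand: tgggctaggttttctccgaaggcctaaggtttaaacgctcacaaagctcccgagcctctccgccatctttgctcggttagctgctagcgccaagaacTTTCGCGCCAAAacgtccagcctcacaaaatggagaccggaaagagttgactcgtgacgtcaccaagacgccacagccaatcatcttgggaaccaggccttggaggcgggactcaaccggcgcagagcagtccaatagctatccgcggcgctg

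In capitals, Top2a holds 4 CHR matches and Mki67 holds 2, while Kif11 and Bub1b hold 1 each; the TTCAAA in Top2a and Kif11 is TTTGAA read on the other strand. Mcm6 holds 3 E2F matches and Mcm5 holds 2, of which a pair overlap head to head in each gene. No E2F or CHR match of these letters lay in the windows of Mcm3, Mcm10, Cdt1, Pcna, Rfc4, Prim1, Rrm1, Rrm2, Tyms or Tk1. The same held for E2f1, whose window lies inside the span of its counted transcript, and for Ccne1, Ccnb1, Plk1, Aurka, Bub1, Birc5 and Cenpe. Mcm2 held 1 CHR match and no E2F match.

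**Figure D1:**
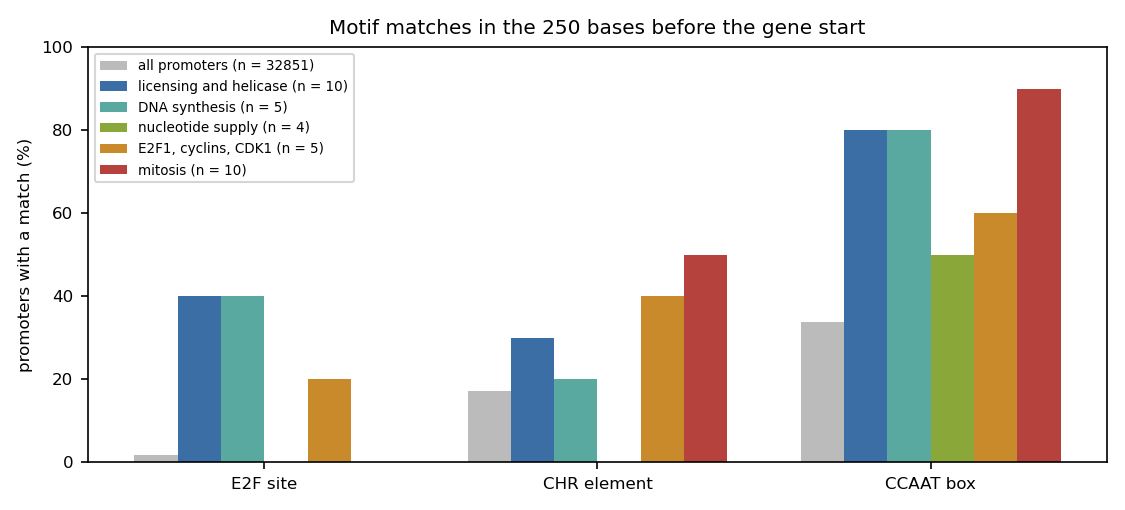
Share of promoter windows (vertical axis, percent) with at least 1 match to each motif in the 250 bases before the gene start of the window, for 32851 promoters and for each role of the 40 genes; n is the number of windows. The windows of Cdc6 and E2f1 and 1 of those of Mcm7 lie inside the span of the counted transcript. E2F matches stand in 4 of 10 licensing windows, 2 of 5 synthesis windows and 0 of 10 mitosis windows, and CHR matches in 5 of 10 mitosis windows. A role without a bar has 0 matches.

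Total counts ran from 22146490 to 31209177 per library, and the 40 genes together took from 0.851% of counts (early control replicate 1) to 1.06% (late control replicate 2). The lowest count of any of them in any library was 632. Transcripts of the targeted genes were lower but not absent in sgStat5 libraries: Stat5a lay at 239 to 258 CPM (counts scaled to a common library size with TMM factors) in the 4 control libraries and at 105 to 116 in the 4 sgStat5 libraries, and Stat5b at 249 to 279.8 and at 133 to 154. A guide-induced indel need not remove the transcript, so these values do not measure the protein. The sort matched its markers: Bcl11b was at 4.24 to 12.5 FPKM (fragments per kilobase of transcript, scaled to library size) in the early gate and 19.8 to 76.2 in the late gate. Il2ra, which encodes CD25, was present in all libraries. It was lower with sgStat5, at 475 to 502 FPKM in the 4 control libraries and 232 to 344 in the 4 sgStat5 libraries.

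One library stood apart in the mitosis genes. Early control replicate 1 had a summed level of 344 FPKM over the 11 mitosis genes, against 543 in replicate 2 of the same group. All 11 were higher in replicate 2 than in replicate 1 in early control (median log2 difference 0.57), and all 11 in early sgStat5 (0.36), but 9 of 11 in late control (0.19) and 4 of 11 in late sgStat5 (-0.05). Libraries with the same replicate number also deviated together across all genes, so each comparison was fitted both without and with the replicate number as a block, and the 2 fits are named wherever they differ.

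Per kilobase, these genes were well expressed in every library. Among licensing and helicase genes Mcm6 had the highest mean, 172 FPKM over 8 libraries (156 to 188), and Cdc6 the lowest, 16.6 (14.7 to 19.1). Cdc6 stood at 123 and 98.1 CPM in early control, 110.4 and 93.8 in late control, 117 and 96.8 in early sgStat5 and 99.4 and 93.9 in late sgStat5, so replicate 1 was above replicate 2 in all 4 groups. Among synthesis genes Pcna, the sliding clamp that holds polymerases on DNA, led with 383 FPKM (353 to 409.5), and Pole, the leading-strand polymerase, was lowest with 14.9 (13.1 to 18.1). Of the nucleotide-supply genes, Rrm2, a subunit of ribonucleotide reductase, had 110.1 FPKM and Tyms, thymidylate synthase, 17.2. Of the cyclin group, Ccnb2 had 51.9 FPKM and Ccne1 12.9. Of the mitosis group, Top2a, the topoisomerase that untangles chromosomes, had 142 FPKM and the kinetochore motor Cenpe 14.2. The FPKM of Mcm6, Mcm10, Gins1 and Birc5 rests on another transcript than the count, and Tyms is counted over a non-coding transcript, so their place in this order is less sure. Exons also overlap another gene on the opposite strand, over 17.4% of their length in Ccne2, 12.7% in Rfc4 and 12.5% in Ccna2. These shares are of all annotated exons of the gene, and the overlap of the counted transcript alone was not measured. Pcna, Tyms, Ccnb1 and Ccnb2 have annotated pseudogenes that could share reads.

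**Figure D2:**
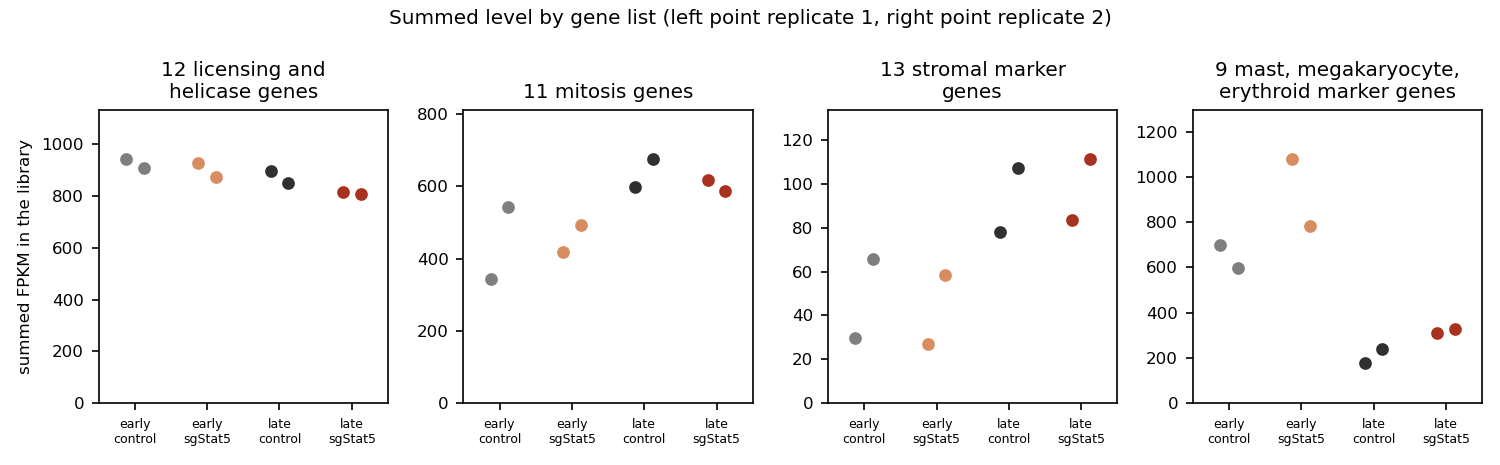
Summed FPKM (vertical axis) in each of the 8 libraries for the 12 licensing and helicase genes, the 11 mitosis genes, 13 stromal marker genes and 9 mast, megakaryocyte and erythroid marker genes; each point is 1 library. The mitosis sum is lowest in early control replicate 1 (344) and at least 589 in all 4 late libraries, the licensing sum is lowest in late sgStat5 (814 and 809), the stromal sum is higher in the late gate and in replicate 2, and the mast, megakaryocyte and erythroid sum is lower in the late gate.

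The first question is which of these genes differ across commitment, from the early to the late gate. With the replicate number as a block in edgeR, 6 of 11 mitosis genes passed as higher in the late gate with control guides and 4 with sgStat5. Of all genes, 6.64% and 11.3% passed as higher in those arms, and 4.3% and 11.5% as lower. Ccne1, a cyclin E gene, passed as lower in both arms, and 5 of 12 licensing and helicase genes with sgStat5. Without the block edgeR passed none of the 40 in either arm. DESeq2 without the block called 4 of the 40 higher with control guides and 3 with sgStat5, where 2.64% and 6.36% of all genes were. In summed level, the 11 mitosis genes had 344 and 543 FPKM in early control and 599 and 676 in late control, and 419.9 and 493 in early sgStat5 against 617 and 589 in late sgStat5. The 12 licensing and helicase genes had 942 and 908 FPKM in early control, 894 and 851 in late control, 927 and 875 in early sgStat5 and 814 and 809 in late sgStat5. The ratio of mitosis to licensing sums was thus 0.366 and 0.598 in early control against 0.669 and 0.794 in late control, and 0.453 and 0.564 against 0.757 and 0.728 in sgStat5. Late libraries did not overlap early ones, and the log2 ratio was higher in the late library of all 4 pairs, by 0.87 and 0.41 with control guides and by 0.74 and 0.37 with sgStat5. In bulk libraries, fewer cells with a transcript and less of it per cell cannot be told apart.

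In edgeR's quasi-likelihood test over 13775 genes without the block, 0 of the 40 genes passed an adjusted p of 0.05 in either arm, where 0.0145% of genes passed with control guides and 0.973% with sgStat5. At an unadjusted p under 0.05 stood 9 of the 40 with control guides and 11 with sgStat5, of 2049 and 3305 genes in all. With the replicate block, 7 of the 40 passed as higher and 1 as lower in the late gate with control guides, where 6.64% and 4.3% of all genes passed in those directions. With sgStat5, 5 passed as higher and 6 as lower, where 11.3% and 11.5% of all genes did. DESeq2 without the block called 4 higher with control guides (Bub1b, Top2a, Mki67, Kif11) and 3 with sgStat5 (Mki67, Kif11, Ccnb2), where 2.64% and 6.36% of all genes were called higher. It called 0 of the 40 lower, where 1.37% and 5.4% were. On simulated counts made for the comparisons of guides, the blocked fit called a larger share of unchanged genes among its calls than its threshold allows, and the fit without the block did not. By role, the block called 6 of 11 mitosis genes and 1 of 7 cyclin-group genes higher with control guides, and 4 and 1 with sgStat5. All 5 licensing calls, all lower, were in the sgStat5 arm; the test of the difference between the arms, given below with the guide effects, passed for 0 of the 40.

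Kif11, the motor that pushes spindle poles apart, stood at 161 and 239 CPM in early control, 302 and 334 in late control, 201 and 223 in early sgStat5 and 309.5 and 291 in late sgStat5. Every late library was above every early library. The log2 change was 0.67 (SE 0.18, adjusted p = 0.223) with control guides without the block and 0.68 (SE 0.13, adjusted p = 0.0143) with it. With sgStat5 it was 0.51 (SE 0.13, adjusted p = 0.0224) in the blocked edgeR fit. Bub1b, the BUBR1 checkpoint kinase, had 135 and 176 CPM in early control, 233 and 241 in late control, 152 and 169.6 in early sgStat5 and 214 and 206 in late sgStat5, again with no overlap between gates. Its blocked edgeR changes were 0.62 (SE 0.10, adjusted p = 0.00917) and 0.39 (SE 0.10, adjusted p = 0.0266).

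Top2a had 639.6 and 974 CPM in early control, 1235 and 1299 in late control, 767 and 926 in early sgStat5 and 1164 and 1122 in late sgStat5. Early control replicate 1 was the lowest, and all late libraries were above all early ones; the blocked edgeR changes were 0.67 (SE 0.13, adjusted p = 0.0148) with control guides and 0.45 (SE 0.13, adjusted p = 0.0365) with sgStat5. Mki67, which coats mitotic chromosomes and marks dividing cells, had 619.7 and 809 CPM in early control, 1151 and 1080.1 in late control, 696 and 715 in early sgStat5 and 1143 and 879 in late sgStat5. Here the early sgStat5 libraries lay close together and late sgStat5 replicate 2 was the lowest late library; blocked edgeR changes were 0.64 (SE 0.14, adjusted p = 0.0231) and 0.52 (SE 0.14, adjusted p = 0.0285). The kinetochore kinase Bub1 had 62.1 and 92.1 CPM in early control, 94.5 and 107 in late control, 73.2 and 94.0 in early sgStat5 and 87.3 and 102 in late sgStat5. Its early replicate 2 libraries reached the late range, and only the control arm passed with the block, at 0.41 (SE 0.10, adjusted p = 0.039).

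Plk1, a kinase needed to enter and leave mitosis, had 59.7 and 133 CPM in early control, 119 and 170.4 in late control, 71.2 and 115 in early sgStat5 and 109 and 129.8 in late sgStat5. Replicate 2 was the higher library in each group, early and late ranges overlapped, and the change with control guides was 0.58 (SE 0.39, adjusted p = 0.528) without and 0.65 (SE 0.17, adjusted p = 0.0448) with the block. Aurka, a spindle-pole kinase, had 39.7 and 77.3 CPM in early control, 76.1 and 100.0 in late control, 50.8 and 78.4 in early sgStat5 and 79.4 and 74.6 in late sgStat5, and neither arm passed. Cenpe, which links kinetochores to microtubules, had 97.3 and 142 CPM in early control, 193 and 172 in late control, 111 and 152 in early sgStat5 and 192 and 159 in late sgStat5. Its gates did not overlap, but its blocked adjusted p stayed at 0.0604 with control guides and 0.123 with sgStat5. The remaining 3, the APC activator Cdc20, the kinase Aurkb and its partner Birc5 (survivin), had log2 changes of 0.24, 0.39 and 0.39 with control guides and 0.24, 0.12 and 0.24 with sgStat5, none past the threshold. All 11 mitosis genes had a change above 0 in both arms, with medians of 0.59 with control guides and 0.36 with sgStat5; the median of all genes tested was 0.03 in both.

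In the cyclin group of 7, the blocked fit called 1 gene higher and 1 lower in the late gate in each arm. Ccne1 was lower in both, Ccnb1 higher with control guides and Ccnb2 higher with sgStat5. Ccne1, the G1/S partner of CDK2, stood at 45.9 and 40.3 CPM in early control, 34.1 and 29.7 in late control, 39.2 and 33.9 in early sgStat5 and 27.9 and 27.9 in late sgStat5. It was lower in the late library of all 4 pairs, although the lowest early and the highest late library lay side by side, and the blocked edgeR changes were -0.44 (SE 0.11, adjusted p = 0.042) and -0.38 (SE 0.11, adjusted p = 0.0423). Ccne2, its paralog, had 66.6 and 58.5 CPM in early control, 54.1 and 48.7 in late control, 62.1 and 63.5 in early sgStat5 and 49.8 and 51.0 in late sgStat5. Its late libraries were all below its early ones; in the blocked fit its changes were -0.28 (SE 0.10, adjusted p = 0.109) and -0.32 (SE 0.10, adjusted p = 0.0519), so it did not pass. E2f1, the transcription factor that drives entry into S phase, had 91.0 and 68.5 CPM in early control, 65.3 and 60.8 in late control, 76.3 and 66.5 in early sgStat5 and 61.4 and 59.3 in late sgStat5, also without overlap of the gates. Its blocked changes were -0.33 (SE 0.11, adjusted p = 0.0781) and -0.24 (SE 0.11, adjusted p = 0.138). All late libraries lay below all early ones in 4 of the 40 genes and in 10.5% of all genes, so that count is near the background.

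The mitotic cyclins are partners of CDK1. Ccnb2 had 92.3 and 106 CPM in early control, 120.1 and 117 in late control, 93.0 and 101 in early sgStat5 and 133 and 117 in late sgStat5, with no overlap. It passed with the block in the sgStat5 arm only, at 0.37 (SE 0.10, adjusted p = 0.0303), against 0.26 (SE 0.10, adjusted p = 0.132) with control guides; the difference between arms was 0.11 (SE 0.14, adjusted p = 0.937) and did not pass. Ccnb1 had 70.5 and 162 CPM in early control, 133 and 206 in late control, 89.7 and 152 in early sgStat5 and 133 and 172 in late sgStat5. Replicate 2 was far above replicate 1 in early control, and the blocked change there was 0.61 (SE 0.16, adjusted p = 0.0416) against 0.54 (SE 0.42, adjusted p = 0.587) without the block. Cdk1 itself had 67.2 and 133 CPM in early control, 92.1 and 159 in late control, 86.5 and 122 in early sgStat5 and 88.9 and 124 in late sgStat5, with replicate 2 the higher in all groups. The changes of Cdk1 and of Ccna2, the S and G2 cyclin, were 0.33 and 0.40 with control guides and 0.03 and 0.16 with sgStat5, and neither passed.

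Among licensing and helicase genes, 8 of 12 were lower in the late library of all 4 pairs and 0 were higher, where 24.4% and 27% of all genes were. The medians were -0.07 with control guides and -0.22 with sgStat5. Mcm2 had 535 and 464 CPM in early control, 445 and 438 in late control, 459 and 456 in early sgStat5 and 371 and 379 in late sgStat5. All its late libraries were below all its early ones, and the blocked edgeR change was -0.29 (SE 0.07, adjusted p = 0.0229) with sgStat5 and -0.17 (SE 0.07, adjusted p = 0.163) with control guides. Mcm10, which helps fire the helicase, had 104 and 106 CPM in early control, 97.7 and 99.5 in late control, 94.6 and 112 in early sgStat5 and 83.5 and 83.7 in late sgStat5. Its late sgStat5 libraries were nearly equal and the lowest of the 8, and its blocked change in that arm was -0.31 (SE 0.09, adjusted p = 0.0366). Mcm3, Mcm6 and Mcm5 also passed with the block with sgStat5, at -0.26, -0.24 and -0.23, with adjusted p of 0.0187, 0.0205 and 0.0454 in edgeR. Mcm4, Mcm7, the loaders Cdc6 and Cdt1, and Cdc45, Gins1 and Gins2 did not pass in either arm.

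Of the 6 synthesis and 4 nucleotide-supply genes, 0 passed between the gates in either arm in either edgeR fit. Pcna, Pole and Pola1 had differences of 0.10, 0.15 and 0.17 on the log2 scale with control guides and of 0.00, -0.08 and -0.06 with sgStat5. Pcna had 698 and 607 CPM in early control, 718 and 680.1 in late control, 673 and 635 in early sgStat5 and 669 and 640.2 in late sgStat5, with overlapping gates. Tyms had 67.2 and 92.7 CPM in early control, 103 and 103 in late control, 83.6 and 91.0 in early sgStat5 and 87.5 and 97.6 in late sgStat5; early control replicate 1 was the lowest and the other 7 lay between 83.6 and 103. Its change with control guides was 0.36 (SE 0.15, adjusted p = 0.34) without the block and 0.37 (SE 0.11, adjusted p = 0.0628) with it. All 4 nucleotide-supply genes had a change above 0 in that arm. Over all 40 genes, 15 were higher and 12 lower in the late library of all 4 pairs, where 27% and 24.4% of all genes were. Of the 15, 9 were mitosis genes (9 of 11), 4 cyclin-group genes and 2 nucleotide genes. In 7 of the 40 all late libraries were above all early ones (8.44% of all genes) and in 4 all were below (10.5%); the 7 were Bub1b, Top2a, Mki67, Birc5, Kif11, Cenpe and Ccnb2, and the 4 were Mcm2, Rfc4, E2f1 and Ccne2.

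**Figure D3:**
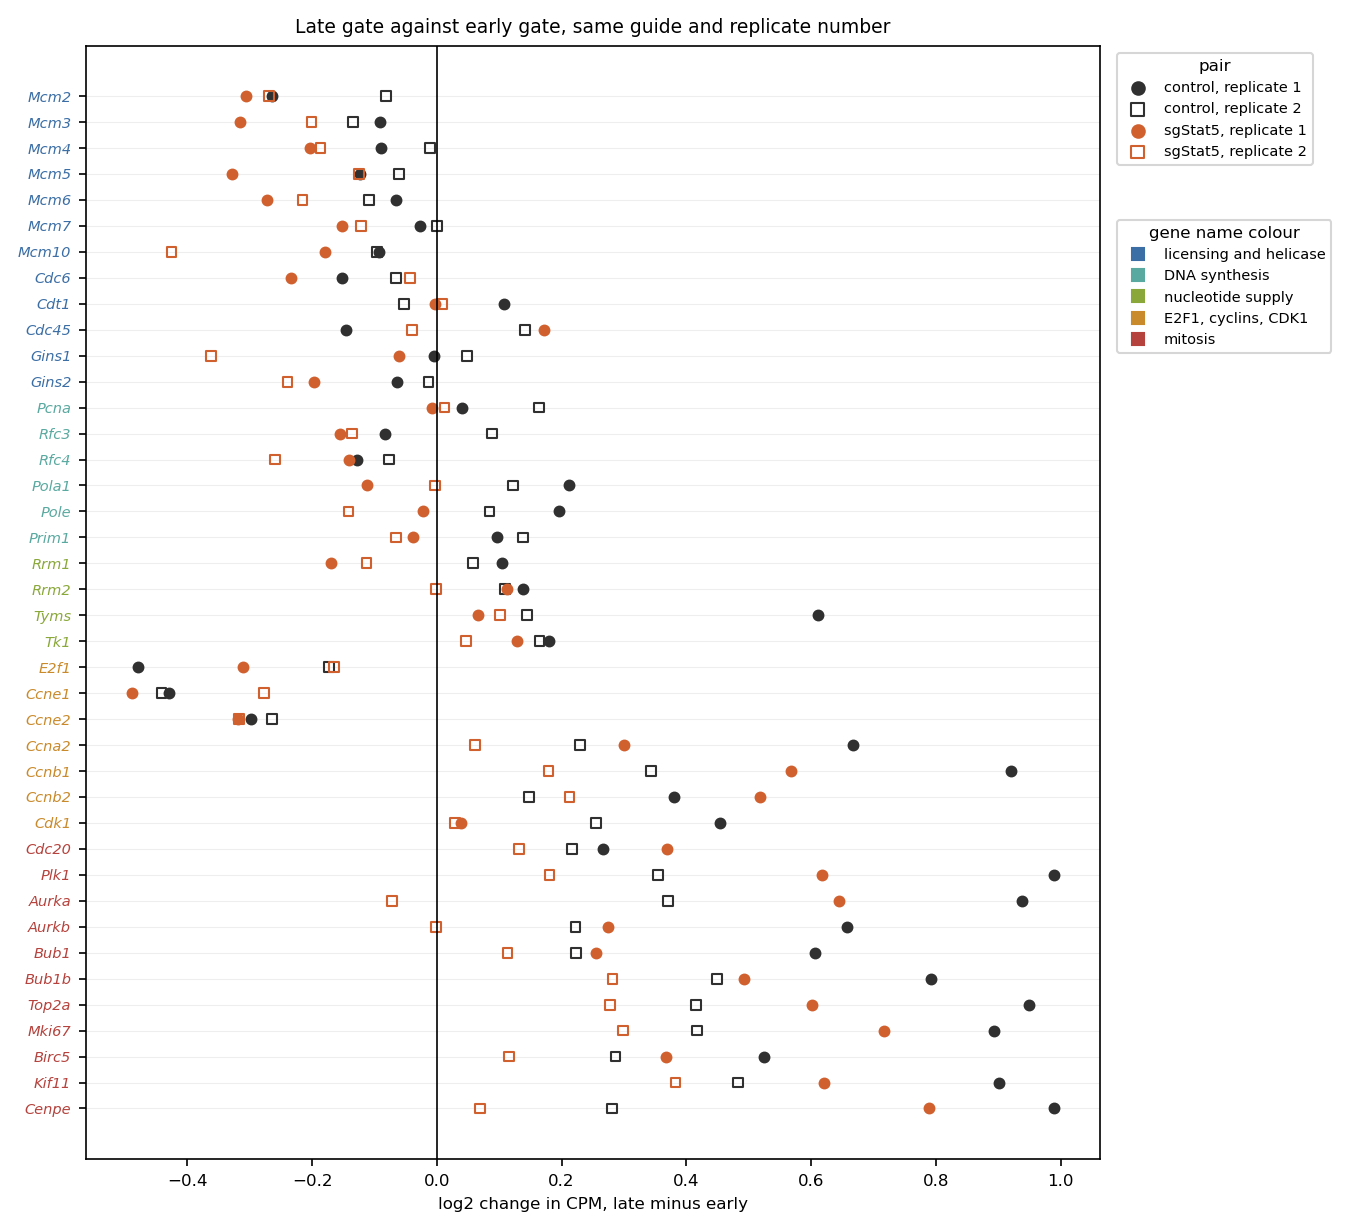
Log2 change in CPM from the early to the late gate (horizontal axis) for each of the 40 genes, in 4 pairs of libraries with the same guide and replicate number; filled circles are replicate 1 and open squares replicate 2, and gene names are coloured by role. Mitosis genes lie to the right of 0 apart from Aurka and Aurkb in 1 pair, at or just below 0, E2f1 and cyclin E genes lie to the left, and the control replicate 1 pair is the farthest right for most mitosis genes.

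Of the 21 calls of 15 genes made with the block in the 5 comparisons, all 21 were lost without at least 1 library. The size of the change moved for some genes and little for others. In the blocked fits without 1 library each, the control-arm change of Ccne1 ran from -0.469 to -0.412, that of Kif11 from 0.444 to 0.932 and that of Plk1 from 0.335 to 1.0. Without early control replicate 1 the control-arm changes were 0.444 for Kif11, 0.426 for Top2a, 0.392 for Mki67, 0.451 for Bub1b, 0.335 for Plk1, 0.324 for Ccnb1 and 0.257 for Bub1. Without early control replicate 1, the library with few mitosis transcripts, the blocked fit called 0 of the 40 in the control arm; without late control replicate 1 it called 0 as well, and without early control replicate 2 or late control replicate 2 it called 14 and 7 higher and 0 lower. The gap between the mitosis and licensing medians was 0.66 with control guides; in the blocked fit it was 0.37 without early control replicate 1 and 1.02 without early control replicate 2. With sgStat5 the gap was 0.58, and the blocked fits without 1 library each ran from 0.303 to 0.862. In that arm the block called 0 higher and 1 lower without early sgStat5 replicate 1 and likewise without early sgStat5 replicate 2, 0 and 0 without late sgStat5 replicate 1, and 9 and 1 without late sgStat5 replicate 2.

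Markers of other cells moved with the gates. The 10 markers of T progenitors summed to 925 to 1285 FPKM in the early gate and 1376 to 2111 in the late gate. Of these 10, 4 had a change below 0 between gates with control guides and 2 with sgStat5. Kit was lower in every late library, at 47.2 to 67.2 FPKM early and 27.4 to 44.3 late. The 13 stromal markers, which OP9-DLL1 cells carry, summed to 29.8 and 65.6 FPKM in early control, 78.2 and 107 in late control, 26.9 and 58.6 in early sgStat5 and 83.6 and 111 in late sgStat5, so the sum was higher in the late gate and, within each group, in replicate 2. Not every marker followed the sum: Thbs1 and Pdgfrb were higher in replicate 1 of all 4 groups. In late control, Thbs1 had 42.5 and 11.8 FPKM and Pdgfrb 12.9 and 11.1. Thbs1 was thus 42.5 of the 78.2 FPKM in late control replicate 1, and 43.5 of the 83.6 in late sgStat5 replicate 1. In the early replicate 1 libraries it had 7.18 FPKM with control guides and 8.97 with sgStat5. Of the 12 stromal markers tested, 11 had a change above 0 between gates with control guides and 10 with sgStat5. Only Thbs1 was higher in every late library than in any early one. The stromal marker Lum was at 0 in all libraries and Col1a1 ran from 0 to 10.03 FPKM. Early sgStat5 replicate 1 had 6 of the 13 at 0. The 9 mast, megakaryocyte and erythroid markers summed to 597 to 1079 FPKM in the early gate and 178 to 326 in the late gate, mostly Hbb-bs and Cpa3, while Fcer1a, Pf4 and Hba-a1 stayed at or under 0.2. Hbb-bs ran from 330 to 640 FPKM early and 18.1 to 142 late, but Cpa3 overlapped, at 147 to 377 and 115 to 256. Of the 6 tested, 1 had a change above 0 between gates with control guides and 2 with sgStat5. Gata1 was higher in the late library of all 4 pairs, at 0.10 to 0.52 FPKM early and 0.40 to 1.03 late. The 12 myeloid and dendritic markers summed to 18.6 to 30.8 FPKM early and 9.48 to 12.3 late. Of the 10 tested, 4 were lower in every late library than in any early one. Ly6c2 was higher in every late library, at 0.41 to 1.33 FPKM early and 1.96 to 5.45 late. The 8 B-cell markers summed to 3.75 to 10.4 over all libraries, with Ms4a1 at 0. The 8 NK and innate lymphoid markers summed to 16.1 to 42.1 over all libraries. Of the 6 tested, 4 (Ncr1, Klrd1, Eomes and Zbtb16) were lower in every late library and 0 higher. The part of these cells in the differences between gates was not tested.

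The second question is what the Stat5 guides changed. In the early gate, the 40 genes were about level: the median log2 difference between sgStat5 and control was 0.00, as it was for all genes. edgeR called 0 of the 40, where it called 0.269% of all genes, and with the replicate block 0 again, where 2.33% passed. The counts at an unadjusted p under 0.05 were 0 of 40 and 887 of 13775 without the block, and DESeq2 called 0 of the 40 and 1.79% of all genes. The highest differences were those of Rfc3, a subunit of the clamp loader, at 0.16 (SE 0.12, adjusted p = 0.962), and Gins1, at 0.15 (SE 0.13, adjusted p = 0.974). Rfc3 had 48.3 and 43.8 CPM in early control, 45.6 and 46.6 in late control, 54.3 and 48.4 in early sgStat5 and 48.8 and 44.0 in late sgStat5. Gins1 had 41.9 and 37.5 CPM in early control, 41.8 and 38.8 in late control, 41.2 and 47.1 in early sgStat5 and 39.6 and 36.6 in late sgStat5. The 2 early sgStat5 libraries of Rfc3 were above the 2 early control libraries, barely in replicate 2, whereas those of Gins1 overlapped them. The lowest were Ccne1, at -0.24 (SE 0.14, adjusted p = 0.9), and E2f1, at -0.16 (SE 0.15, adjusted p = 0.993).

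In the late gate, the median log2 difference over the 40 genes was -0.15, against -0.02 over all genes tested, and 38 of the 40 were below 0, as were 7210 of the 13775 genes tested. edgeR without the block called 0 of the 40, where it called 1.71% of all genes, and 4 of the 40 had an unadjusted p under 0.05. DESeq2 called 0 of the 40 and 4.41% of all genes. With the block edgeR called 2 lower, Mcm3 and Rrm1, and 0 higher, where 4.49% and 3.72% of all genes passed in those directions. A count of 2 of 40 is near that background. Both calls were lost in every blocked fit that left out 1 of the 4 late libraries. The difference ran from -0.321 to -0.226 for Mcm3 and from -0.263 to -0.223 for Rrm1.

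Mcm3, a helicase ring subunit, had 549 and 546 CPM in early control, 516 and 498 in late control, 512 and 492 in early sgStat5 and 411 and 428 in late sgStat5. The 2 late sgStat5 libraries were the lowest of the 8, and the difference was -0.27 (SE 0.07, adjusted p = 0.175) without and -0.27 (SE 0.06, adjusted p = 0.0303) with the block. Rrm1, the large subunit of ribonucleotide reductase, had 520.0 and 585 CPM in early control, 559 and 609 in late control, 537 and 551 in early sgStat5 and 478 and 509.6 in late sgStat5. Again both late sgStat5 libraries were below the other 6, and the differences were -0.24 (SE 0.09, adjusted p = 0.343) and -0.24 (SE 0.06, adjusted p = 0.0468). Rrm2, which pairs with it, had 310.1 and 348 CPM in early control, 341 and 375 in late control, 286 and 338 in early sgStat5 and 309.6 and 338 in late sgStat5, and its blocked difference in the late gate was -0.15 (SE 0.07, adjusted p = 0.238).

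The MCM genes shared this order of libraries. Counted after the values were seen, both late sgStat5 libraries lay below the other 6 in 11 of the 40 genes, against 10.7% of all genes, and above them in 0, against 9.18%. The 11 were Mcm2 to Mcm7, Mcm10, Gins2, Rfc4, Rrm1 and Ccne1, that is 8 of 12 licensing and helicase genes and 0 of 11 mitosis genes. Mcm6 had 794 and 736 CPM in early control, 759 and 683 in late control, 788 and 753 in early sgStat5 and 653 and 649 in late sgStat5. Its difference in the late gate was -0.15 (SE 0.06, adjusted p = 0.197) with the block, and those of Mcm2, Mcm4, Mcm5 and Mcm7 were -0.24, -0.18, -0.20 and -0.09 (adjusted p = 0.0905, 0.166, 0.134 and 0.453 in edgeR), so none of them passed. Gins2, a GINS subunit, had 50.5 and 44.1 CPM in early control, 48.4 and 43.7 in late control, 44.7 and 41.7 in early sgStat5 and 38.9 and 35.3 in late sgStat5, with a difference of -0.31 (SE 0.10, adjusted p = 0.101) in the blocked fit, the lowest of the 40 without the block. Of the 4097 bases in all annotated exons of Gins2, 67.3% overlap exons of Gse1 on the other strand. The counted transcript has 1031 bases, and its own overlap was not measured. The kit keeps no strand, so the Gins2 counts may hold reads of Gse1. Plk1 was the second lowest without the block, at -0.27 (SE 0.39, adjusted p = 0.857); the highest were Ccnb2, at 0.07 (SE 0.11, adjusted p = 0.858), and Rfc3, at 0.01 (SE 0.12, adjusted p = 0.991). Across both gates, 8 of the 40 were lower with sgStat5 in all 4 pairs (5 licensing, 1 nucleotide and 2 cyclin-group genes), where 18.9% of all genes were, and 0 were higher, where 16.6% were.

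**Figure D4:**
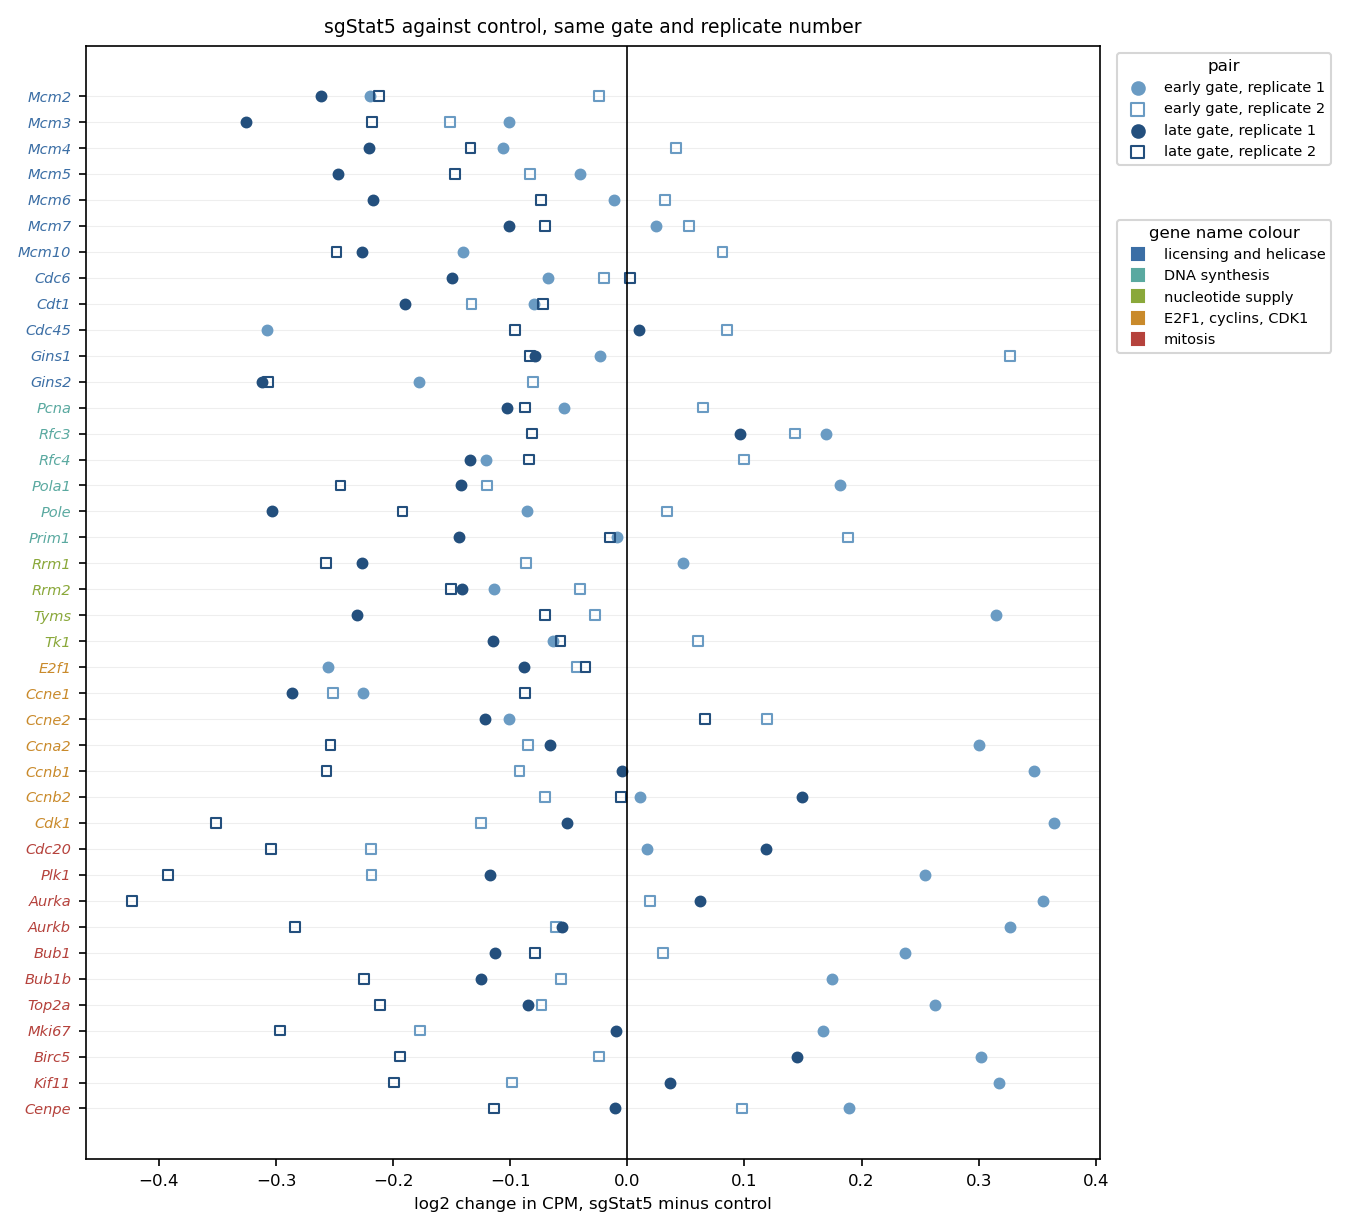
Log2 difference in CPM between sgStat5 and control (horizontal axis) for each of the 40 genes in 4 pairs with the same gate and replicate number; light points are the early gate, dark points the late gate, circles replicate 1 and squares replicate 2. Mcm2 to Mcm7 lie left of 0 in both late pairs, while mitosis genes lie right of 0 in the early replicate 1 pair and left of 0 in the late replicate 2 pair.

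For the mitosis genes the 2 early pairs did not share a direction: the median difference was 0.25 in replicate 1 and -0.06 in replicate 2, the first being a comparison with early control replicate 1. In the late gate the pair medians were -0.01 and -0.22. The difference between gates of the sgStat5 effect passed for 0 of the 40 without the block (0% of all genes) and for 0 with it (0%), with 0 of 40 and 302 of 13775 genes at an unadjusted p under 0.05 without the block; DESeq2 called 0 of the 40 and 2 genes in all (0.0145%). The median of that difference was -0.15 over the 40, with 35 below 0, and -0.02 over all genes, with 7342 of 13775 below 0. It ran from -0.34 (SE 0.47, adjusted p = 1) for Aurka and -0.29 (SE 0.54, adjusted p = 1) for Cdk1 to 0.10 (SE 0.22, adjusted p = 1) for E2f1 and 0.11 (SE 0.15, adjusted p = 1) for Ccnb2. A difference of the guide effect between the gates was thus not detectable for any of the 40.

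**Figure D5:**
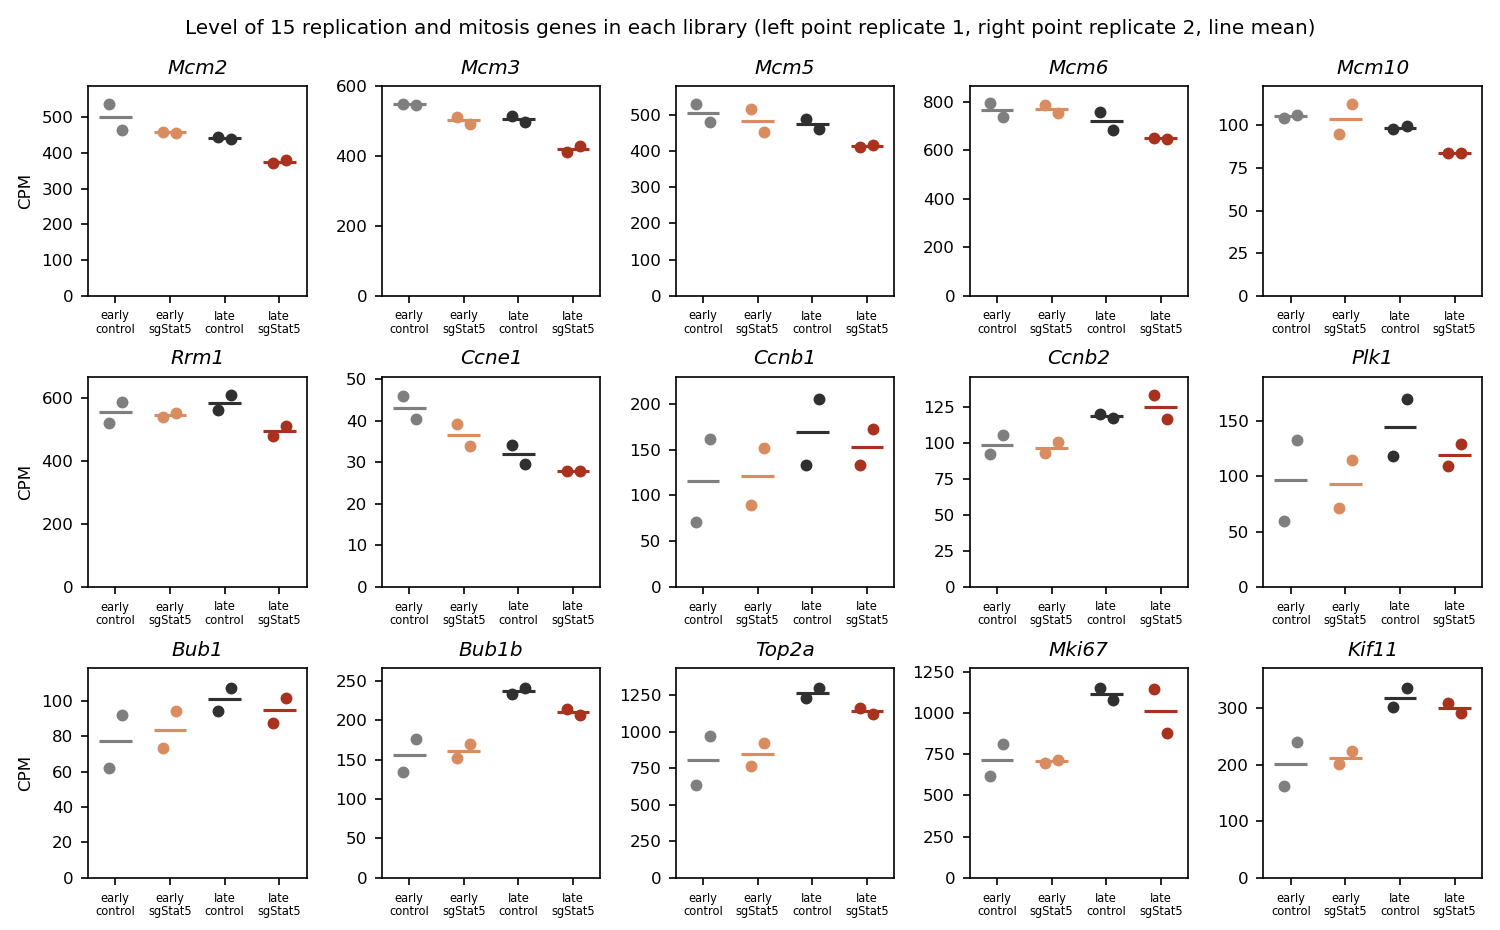
CPM (vertical axis, from 0) in each library for the 15 genes that passed in at least 1 comparison with the replicate block; the left point is replicate 1, the right point replicate 2 and the line their mean. Kif11, Bub1b, Top2a, Mki67 and Ccnb2 are higher in every late library than in any early one, and both late sgStat5 libraries are the lowest for Mcm2, Mcm3, Mcm5, Mcm6, Mcm10, Rrm1 and Ccne1.

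Other genes of the same pathways, 115 in 5 lists and all tested, were read with the same fits. In the list of 41 further mitosis and cytokinesis genes, 36 were higher in the late library of all 4 pairs and 0 were lower, where 27% and 24.4% of all genes were, and the medians were 0.47 with control guides and 0.29 with sgStat5. The blocked fit called 25 higher and 0 lower with control guides, where 6.64% and 4.3% of all genes passed, and 8 higher and 1 lower with sgStat5, where 11.3% and 11.5% did. Without the block the calls were 0 and 0 (0.0145% of all genes in either direction), and 1 and 0 (0.973%). Leaving out 1 library, the block called 1 of the 41 higher with control guides without early control replicate 1, 1 without late control replicate 1, 27 without early control replicate 2 and 16 without late control replicate 2; with sgStat5 it called 3 without early replicate 1, 5 without early replicate 2, 3 without late replicate 1 and 16 without late replicate 2. The largest rise with control guides was that of Nusap1, a spindle protein, at 1.15 (SE 0.20, adjusted p = 0.0103) in the blocked edgeR fit. With sgStat5 it was that of Cdc25b, the phosphatase that activates CDK1 for mitosis, at 1.09 (SE 0.15, adjusted p = 0.00177), which also passed without the block. Cdc25b had 52.9 and 65.8 CPM in early control, 140.0 and 119 in late control, 69.8 and 67.1 in early sgStat5 and 167 and 125 in late sgStat5, so every late library was above every early one. The 1 gene lower with sgStat5 was Mybl2, at -0.36 (SE 0.08, adjusted p = 0.0148), a transcription factor that E2F activates. Mybl2 had 136 and 136 CPM in early control, 145 and 138 in late control, 127 and 132 in early sgStat5 and 95.6 and 107 in late sgStat5, and was also lower with sgStat5 in the late gate, at -0.48 (SE 0.08, adjusted p = 0.00717), a call that held without the block. In that comparison the list also had 1 call higher, the condensin subunit Smc4, at 0.44 (SE 0.10, adjusted p = 0.033 in the blocked edgeR fit). Of all genes, 3.72% passed there as higher and 4.49% as lower.

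In the blocked fit, the list of 17 other origin and licensing genes had 0 calls between gates with control guides. Of all genes, 6.64% passed as higher and 4.3% as lower there. With sgStat5 the list had 0 higher and 2 lower, where 11.3% and 11.5% of all genes passed. These counts are near the background or below it. The larger change was that of the origin subunit Orc2, at -0.52 (SE 0.10, adjusted p = 0.00701 in edgeR). Orc2 had 111 and 109.7 CPM in early control, 92.9 and 101 in late control, 98.9 and 109 in early sgStat5 and 63.6 and 81.8 in late sgStat5. It was the list's 1 call, lower, between guides in the late gate, where 4.49% of all genes passed as lower. Its difference there was -0.42 (SE 0.10, adjusted p = 0.0346) in the blocked edgeR fit. The 26 other fork and chromatin-assembly genes had 2 calls higher and 2 lower between gates with sgStat5, below the shares of 11.3% and 11.5% over all genes. The larger changes each way were those of Uhrf1, a maintenance methylation factor, and Rfc5, a clamp-loader subunit. In the blocked edgeR fit they were 0.33 (SE 0.07, adjusted p = 0.0107) and -0.35 (SE 0.09, adjusted p = 0.0282). These 26 genes had 0 calls with control guides and 0 between guides in the late gate. In the early gate 0 of the 115 were called between guides in either fit, where 0.269% of all genes passed without the block and 2.33% with it.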

How the data were processed

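Counts and FPKM of 8 libraries were used. Per the submitters' processing notes, the genome was GRCm38/mm10 and the tools included RSEM 1.2.25, STAR 2.4.0 and bcl2fastq 1.8.4. Per the file headers, the authors counted raw tags over exons of 1 RefSeq transcript per gene with HOMER analyzeRepeats, and the deposited FPKM values came from the same program, per kilobase and scaled to the library. The library kit keeps no strand.

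Counts were tested with edgeR 4.0.16 (R 4.3.3; filterByExpr, TMM factors, a quasi-likelihood F-test on 4 group means, two-sided, Benjamini-Hochberg adjustment over 13775 genes in each of 5 comparisons, threshold 0.05). SE is the log2 change divided by the root of F. Replicate numbers recur in the groups. Deviations of same-numbered libraries correlated in all 6 group pairs, with coefficients from 0.421 to 0.578, so the number was also fitted as a block; the common dispersion fell from 0.0853 to 0.0178 and the residual degrees of freedom from 4 to 3. Both fits were tested on simulated counts, in which the blocked fit exceeded its threshold in false calls and the fit without the block did not. Alternatives were DESeq2 1.42.0, RLE and upper-quartile factors, no filter, a CPM of at least 5 in 2 libraries, limma 3.58.1 on log2(FPKM + 1) and log2(FPKM + 0.1), and leaving out each library.

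The 40 genes, the lists and the tests were chosen with earlier results of these data known. Library values are given for genes called in either fit (at most 10 per comparison), the 2 highest and 2 lowest changes of each comparison and the highest and lowest FPKM of each role.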

Additional observations from a re-analysis of the deposited data

How the results depend on the processing

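With 2 libraries a group, the counts of calls depend on the fit. None of the 21 changes of genes called with the block changed sign under any alternative run. Changes of other genes were not checked for sign, and the medians over the 40 are given below. The gap between the mitosis and licensing medians stayed above 0 in both arms under every alternative run. With the replicate block, the genes called in all were 321 and 1132 for sgStat5 against control in the early and late gate, and 1507 and 3144 for late against early with control guides and with sgStat5, against 37, 235, 2 and 134 without it. The block gave 2 of the 40 lower for the late guide effect, 7 higher and 1 lower between gates with control guides, and 5 higher and 6 lower with sgStat5, all of them 0 without it. DESeq2 called 247, 608, 552 and 1620 genes in those comparisons and 2 for the difference between gates, and 4 and 3 of the 40 higher between gates. Without the filter edgeR called 114, 340, 83 and 760 genes. A minimum of 5 CPM gave 231 between gates with sgStat5. In limma, log2(FPKM + 1) without a filter gave 13, 143, 6 and 24.

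Leaving out each library in turn without the block gave 0 to 16, 63 to 100, 0 to 32 and 0 to 0 genes in the same order and 0 of the 40 throughout. With the block it gave 104 to 259 (170 and 196 between), 401 to 674 (524 and 605), 161 to 1633 (169 and 1007) and 886 to 2695 genes (1119 and 2065), 0 to 6 for the difference between gates, 0 to 14 of the 40 higher and 0 lower between gates with control guides, 0 to 9 higher and 0 to 1 lower with sgStat5, and 0 for the guide effects. The gap between mitosis and licensing medians ran from 0.177 to 0.992 without the block and from 0.367 to 1.02 with it in the control arm, lowest without early control replicate 1, and from 0.349 to 0.772 and from 0.303 to 0.862 with sgStat5. A group left with 1 library was assumed to vary like the others. The median over the 40 kept its sign in 17 of 17 alternatives for the late guide effect (-0.183 to -0.0856) and for the control arm between gates (0.0461 to 0.141), and in 25 of 25 for the difference between gates. For the early guide effect it kept it in 8 of 17 and for the sgStat5 arm in 9 of 17, both medians being near 0. The causes were not tested.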

Other observations

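Some genes of the lists of E2F and pocket-protein genes and of checkpoint genes were called in the edgeR fit with the replicate block. E2f2, an activator E2F, had 29.3 and 24.5 CPM in early control, 90.4 and 52.0 in late control, 35.6 and 29.5 in early sgStat5 and 139.9 and 78.7 in late sgStat5. It was higher in every late library than in any early one, and its change between gates was 1.36 (SE 0.16, adjusted p = 0.00244) with control guides and 1.70 (SE 0.16, adjusted p = 0.000337) with sgStat5, opposite in sign to that of E2f1. It was also higher with sgStat5 in the late gate, at 0.62 (SE 0.15, adjusted p = 0.0413), as was Tfdp2, a dimer partner of E2F factors, at 0.43 (SE 0.10, adjusted p = 0.0307). Of the 16 genes of this list, 2 were called higher between gates with control guides (E2f2 and Rbl1) and 1 with sgStat5. Of all genes, 6.64% and 11.3% were called higher in those arms. Between guides in the late gate 2 were called higher (E2f2 and Tfdp2), where 3.72% of all genes were. In the list, 0 were called lower in any of the 5 comparisons.

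Of 15 checkpoint and fork-repair genes, 2 were called lower between gates with sgStat5, where 11.5% of all genes were, so the count is near the background. The larger change was that of the nuclease Exo1, at -0.40 (SE 0.09, adjusted p = 0.0117 in the blocked edgeR fit). Between guides in the late gate 1 was called lower, Cdc25a, where 4.49% of all genes were. Cdc25a, the phosphatase that activates CDK2 at S-phase entry, had 142 and 129.8 CPM in early control, 123 and 125 in late control, 122 and 121 in early sgStat5 and 103 and 99.5 in late sgStat5. Its change was -0.27 (SE 0.08, adjusted p = 0.034) between gates with sgStat5 and -0.29 (SE 0.08, adjusted p = 0.0459) between guides in the late gate, so Cdc25a and Cdc25b, of the same family, had opposite signs between the gates in that arm. Without the block none of these genes of the 2 lists passed. Some of the 40 lie near each other on chromosome 11: 23222 bases separate Tk1 from Birc5 and 69004 separate Cdc6 from Top2a.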
